A study of Mus musculus with 9 samples.

Results

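The laminin chains are the subunits of the laminins, the heterotrimeric glycoproteins that form the cell-facing network of basement membranes. The 9 chain genes described here, Lama2, Lama3, Lama4, Lama5, Lamb1, Lamb2, Lamb3, Lamc1 and Lamc3, were taken by symbol from a table of 84809 gene rows, and each matched 1 row. Expression had been measured by RNA sequencing in 9 libraries of dermal mesenchymal cells from newborn mice, 3 libraries from each of 3 flow cytometry gates on CD49f, the integrin α6 subunit (the CD49f-high, CD49f-low and CD49f-neg populations, with replicates 1 to 3). All 3 gates came from Krt14 cre;Rosa26-mTmG animals, in which the keratin 14 promoter of basal keratinocytes drives Cre and a membrane reporter changes colour after recombination, and cells were used directly after isolation with no culture. Whether the reporter colour entered the gates, and whether replicates came from separate animals, is not given in the sources used here, so the p-values speak of the spread among these libraries, which may be technical. Levels are FPKM, fragment counts scaled to transcript length and library size, and are given as mean ± SD with n = 3 per gate.

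Each laminin joins 1 α, 1 β and 1 γ chain in a coiled coil, and the trimer is named by the numbers of its chains, so that laminin-411 holds α4, β1 and γ1. The globular domains at the end of the α chain carry most contacts with receptors, among them the integrins with an α6 subunit and dystroglycan. The βγ pair is held inside the cell until an α chain joins it. Chains α2 and α4 are typical of muscle, nerve and vessel basement membranes, α5 is widespread in vessels and epithelia, and α3 and β3 are chains of laminin-332 under the epidermis.

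Integrin binding by laminins is known to need a glutamate residue at the third position from the carboxyl end of the γ chain. Trimers with the γ3 chain, which lacks a glutamate at that position, are known to bind integrins poorly. The last 30 coding bases of Lamc3 are printed because this gene set CD49f-low apart from the other gates. They come from the GENCODE M21 transcript on GRCm38, lie on chr2:31945382-31945411 (plus strand) within 1 coding exon, and run 5′ to 3′ up to the stop codon. Capitals mark the codon of the third residue from the end, TGT, which encodes cysteine and not glutamate.
Lamc3: ctgagcagtctgccagagaacTGTgccagc

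Across the libraries as a whole, the spacing of the low FPKM values gave a depth of about 23.6 to 26.9 fragments per FPKM and kilobase, with a faint spacing in CD49f-low replicate 1 and CD49f-high replicate 1. The sorted antigen's own gene, Itga6, stood at 0.475 ± 0.216 FPKM for CD49f-neg, 5.51 ± 0.979 for CD49f-low and 19.9 ± 4.11 for CD49f-high. Fibroblast genes were abundant in every gate, with the 7 markers summing to 13791 to 16810 FPKM for CD49f-neg, 5548 to 6794 for CD49f-low and 4003 to 6018 for CD49f-high. The gates also differed in markers of other cell types. The 9 mural cell markers (pericytes and vascular smooth muscle) summed to 40.5 to 53.5, 84.6 to 165 and 797 to 1473 FPKM in the 3 gates, in the same order. The 8 Schwann cell markers summed to 0.664 to 1.14, 41.1 to 52.4 and 35.5 to 197, and the 8 melanocyte markers to 2.67 to 4.12, 439 to 534 and 22.6 to 53.8. The 8 dermal papilla markers summed to 38.9 to 48.0, 179.9 to 202 and 25.9 to 43.3. Each of them had its highest mean in CD49f-low. Between the other gates they were mixed, with higher means of Corin, Alpl, Sox2 and Notum in CD49f-high than in CD49f-neg. Sox18, Crabp1, Rspo3 and Bmp4 had lower means in CD49f-high. The 8 endothelial markers summed to 1.83 to 3.85, 7.27 to 8.36 and 10.8 to 21.6, the 8 rows that hold the 9 keratinocyte markers to 2.14 to 3.19, 29.5 to 29.95 and 29.99 to 55.5, and the 7 skeletal muscle markers to 1.97 to 3.41, 16.8 to 24.7 and 31.1 to 59.6. The skeletal muscle sum in CD49f-high was mostly Des, which the mural list holds too. Every other skeletal muscle marker had its highest mean in CD49f-low, as Myog did (5.91 ± 2.05 FPKM, against 0.769 ± 0.486 in CD49f-high). The keratinocyte sum in CD49f-low was mostly Cdh1 (16.3 to 21.7 FPKM, against 1.96 to 4.43 in CD49f-high). The melanocyte sum in CD49f-high was mostly Sox10 in replicates 2 and 3 (32.5 and 44.9), a gene that the Schwann list holds too. Of the endothelial markers, Kdr was highest in CD49f-low (3.62 ± 0.517 FPKM, against 1.49 ± 0.529 in CD49f-high). The rest had their highest means in CD49f-high, where Tek differed little from the other gates (1.52, 1.64 and 1.79 FPKM for CD49f-neg, CD49f-low and CD49f-high). Myf5 and Myod1 were listed at 0 in all CD49f-neg libraries. The 6 leukocyte markers summed to 1.74 to 4.18 over all libraries. CD49f-high replicate 1 stood apart from replicates 2 and 3 of its gate, with 5 adipocyte markers at a sum of 269 FPKM against 38.8 and 30.4 (13.5 to 31.4 for CD49f-neg and 42.7 to 52.4 for CD49f-low), and the Schwann cell markers at 35.5 against 166 and 197. The part of these cell types in the laminin results was not tested.

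The first question was which α chains the gates expressed. CD49f-neg and CD49f-low cells expressed mainly Lama2 and, below it, Lama4, while in CD49f-high cells Lama4 was the most abundant α chain in all 3 libraries and Lama5 stood above Lama2 in replicate 1 and below it in replicates 2 and 3. Lama5 rose from gate to gate, Lama3 did so at a far lower level, Lama4 rose from CD49f-low to CD49f-high, and Lama2 was highest in CD49f-low. In bulk samples, a lower level can come from fewer cells that express a gene or from less RNA per cell, and these cannot be told apart.

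Lama2, the α chain of muscle and Schwann cell basement membranes (row MERGE.3563, GRCm38 chromosome 10, 26980036 to 27619758, minus strand), stood at 19.1, 24.4 and 22.4 FPKM in the CD49f-neg libraries, 34.4, 42.1 and 43.0 in CD49f-low and 17.8, 32.3 and 32.2 in CD49f-high. All CD49f-low libraries lay above all others, and CD49f-high replicate 1 lay below every CD49f-neg library while replicates 2 and 3 lay above them. Lama2 rose from CD49f-neg to CD49f-low by 0.83 on the log2(FPKM + 1) scale (SE 0.22, limma adjusted p = 0.0330). That call was lost with any 1 of 5 libraries left out, namely CD49f-neg replicate 1 (adjusted p = 0.0803), 2 (0.0584) or 3 (0.0883) and CD49f-low replicate 2 (0.102) or 3 (0.107), and also after median-of-ratios scaling (0.178), quantile normalization (0.114) or with no filter (0.0966). The difference of CD49f-high from CD49f-neg was 0.27 (SE 0.22, limma adjusted p = 0.446), and without CD49f-high replicate 1 it was 0.54 (adjusted p = 0.0268), against 0.13 without replicate 2 or 3 of that gate and 0.17 without CD49f-neg replicate 1. That of CD49f-high from CD49f-low was -0.56 (SE 0.22, limma adjusted p = 0.115) and passed with the replicate block (adjusted p = 0.0201). Leaving out CD49f-high replicate 1 gave -0.29 (adjusted p = 0.199).

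Lama4, an α chain with a short amino-terminal arm found in vessel and nerve basement membranes (row MERGE.3649, chromosome 10, 38965515 to 39110188, plus strand), stood at 15.4, 16.3 and 13.8 FPKM for CD49f-neg, 15.01, 14.2 and 13.3 for CD49f-low and 32.8, 36.8 and 43.2 for CD49f-high. The CD49f-neg and CD49f-low libraries overlapped, and every CD49f-high library lay above all of them. Lama4 exceeded its CD49f-low level in CD49f-high by 1.34 log2 units (SE 0.12, limma adjusted p = 0.000111), and its distance from CD49f-neg was 1.25 (SE 0.12, adjusted p = 9.17e-05). The CD49f-low to CD49f-neg difference was -0.093 (SE 0.12, adjusted p = 0.616).

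Lama5, the α chain of laminin-511 and laminin-521 and a strong ligand of integrin α6β1 (row MERGE.27652, chromosome 2, 180176373 to 180225859, minus strand), had the largest difference between CD49f-neg and CD49f-high of the 8 chains tested (4.28 log2 units, SE 0.23, limma adjusted p = 4.66e-06). It stood at 0.149, 0.217 and 0.170 FPKM for CD49f-neg, 4.87, 2.80 and 4.98 for CD49f-low and 30.4, 16.4 and 20.8 for CD49f-high. No 2 gates overlapped, and the lowest CD49f-high library was CD49f-high replicate 2. The ratio of mean FPKM was 126 between CD49f-high and CD49f-neg, 23.6 between CD49f-low and CD49f-neg and 5.34 between CD49f-high and CD49f-low. The log2(FPKM + 1) difference, which is smaller than the log2 ratio for low values, was 2.12 from CD49f-neg to CD49f-low (SE 0.23, limma adjusted p = 0.000350) and 2.16 from CD49f-low to CD49f-high (SE 0.23, adjusted p = 0.0002695). With a pseudocount of 0.1 these differences were 3.91 and 2.39. The row also names Mir7005, a microRNA gene inside Lama5.

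Lama3, the α chain of laminin-332 (row MERGE.21085, chromosome 18, 12333819 to 12583013, plus strand), followed the same order of gates at a low level. It stood at 0.0425, 0.0401 and 0.0409 FPKM for CD49f-neg, 0.686, 0.763 and 0.622 for CD49f-low and 3.51, 2.36 and 2.91 for CD49f-high, with no overlap between gates. The CD49f-neg values correspond to about 11.03 to 11.8 fragments per library over its longest coding transcript, an estimate from the depth above. Lama3 reached 1 FPKM in the CD49f-high libraries alone, so it was tested only because of its level in that gate. Its p-values describe the values listed and support nothing further. Lama3 rose by 0.70 log2 units from CD49f-neg to CD49f-low (SE 0.13, limma adjusted p = 0.00711) and by 1.21 from CD49f-low to CD49f-high (SE 0.13, adjusted p = 0.000279). The ratios of mean FPKM for these steps were 16.8 and 4.24, and with a pseudocount of 0.1 in place of 1 the differences were 2.48 and 1.92 log2 units, so the order of the step sizes depends on the pseudocount. The first of these calls ended after quantile normalization (0.41 log2 units, adjusted p = 0.0934). The rows of the keratinocyte markers summed to 29.99 to 55.5 FPKM in CD49f-high, and their part in the Lama3 level was not tested. The fifth α gene of the family, Lama1, was at or below 0.278 FPKM in every library and was not tested.

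**Figure D1:**
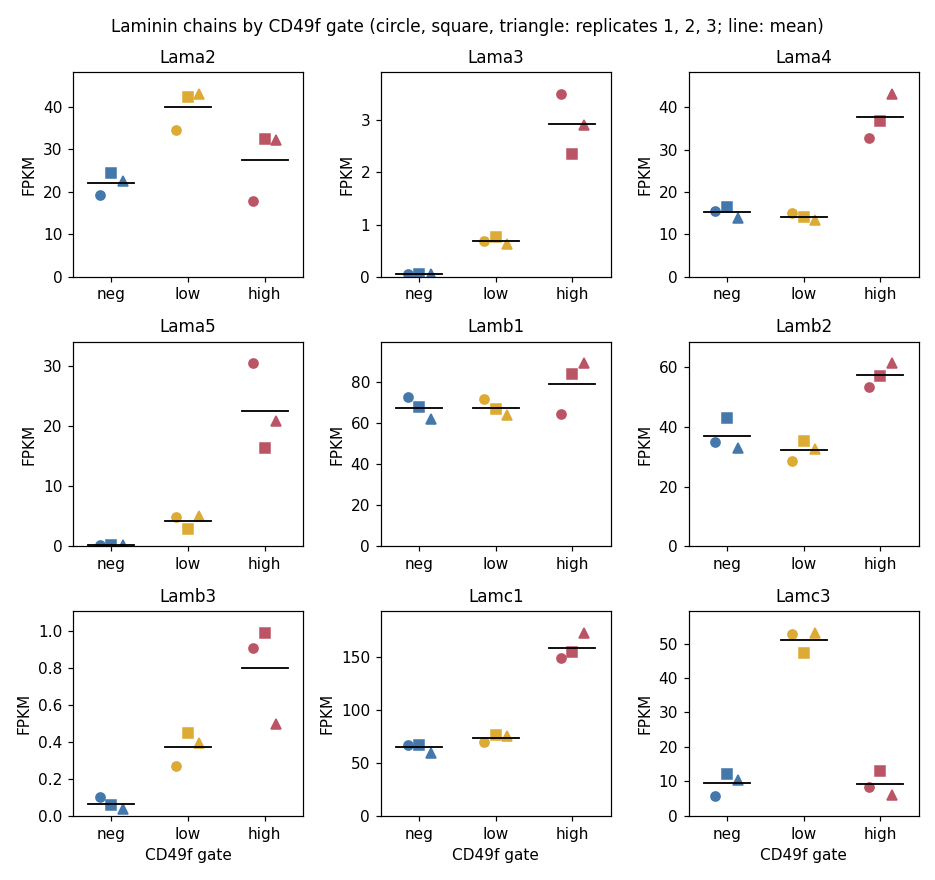
FPKM of the 9 laminin chains in each library (vertical axes from 0, one scale per gene) against the CD49f gate, with circles, squares and triangles for replicates 1, 2 and 3 and a line at the gate mean. Lama5 climbs from 0.179 to 4.22 to 22.5 FPKM, while Lamc3 peaks at 51.0 FPKM in CD49f-low.

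As shares of the summed α chain FPKM, Lama2 held 58.6 ± 3.31% for CD49f-neg, 67.3 ± 4.33% for CD49f-low and 30.1 ± 8.17% for CD49f-high. Lama4 held 40.7 ± 3.30%, 24.1 ± 2.88% and 41.4 ± 2.44%, so that its share in CD49f-high was near that in CD49f-neg although its level was higher. Lama5 held 0.475 ± 0.0499%, 7.17 ± 2.20% and 25.1 ± 9.36%. The CD49f-high libraries were unequal here, since Lama5 held 35.9% in replicate 1 and Lama2 20.95%, against 18.6% and 36.8% in replicate 2 and 20.95% and 32.5% in replicate 3. Lama3 held 3.25 ± 0.781% in CD49f-high, and Lama1 0.326 ± 0.151% in CD49f-low. The order of the α chains by level was therefore the same in all 6 CD49f-neg and CD49f-low libraries (Lama2, Lama4, Lama5, Lama3, Lama1) and differed in CD49f-high, where Lama5 stood above Lama2 in replicate 1 and below it in replicates 2 and 3.

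The β chains differed less between the gates. Lamb1 and Lamb2, the chains found in most basement membranes, made up nearly all β transcript everywhere, Lamb2 rose in CD49f-high, and no difference of Lamb1 passed the test.

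Lamb1 (row MERGE.9107, chromosome 12, 31265234 to 31329644, plus strand) stood at 72.7, 67.9 and 62.0 FPKM for CD49f-neg, 71.6, 66.7 and 64.0 for CD49f-low and 64.3, 83.7 and 89.1 for CD49f-high. The gates overlapped, and CD49f-high replicate 1 lay among the libraries of the other gates. The differences were -0.00024 from CD49f-neg to CD49f-low (SE 0.14, limma adjusted p = 0.999) and 0.21 from CD49f-neg to CD49f-high (SE 0.14, adjusted p = 0.323). The second was 0.35 without CD49f-high replicate 1 (adjusted p = 0.0577) and 0.12 without replicate 3 (adjusted p = 0.618). From CD49f-low to CD49f-high Lamb1 differed by 0.21 (limma adjusted p = 0.329), by 0.35 without CD49f-high replicate 1 (adjusted p = 0.0639) and by 0.12 without replicate 3 (adjusted p = 0.644).

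Lamb2, the β chain of neuromuscular and vascular laminins (row MERGE.48648, chromosome 9, 108479736 to 108490530, plus strand), stood at 34.9, 42.9 and 32.9 FPKM for CD49f-neg, 28.5, 35.4 and 32.5 for CD49f-low and 53.6, 57.0 and 61.3 for CD49f-high. The CD49f-high libraries lay above all others. Lamb2 rose from CD49f-neg to CD49f-high by 0.63 log2 units (SE 0.13, limma adjusted p = 0.00729) and from CD49f-low by 0.82 (SE 0.13, adjusted p = 0.00255). Its CD49f-low to CD49f-neg difference of -0.19 (SE 0.13, limma adjusted p = 0.339) became a call after median-of-ratios scaling (-0.47, adjusted p = 0.0408), and was -0.11 without CD49f-low replicate 1 and -0.079 without CD49f-neg replicate 2.

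Lamb3, the β chain of laminin-332 (row MERGE.3020, chromosome 1, 193207699 to 193343878, plus strand), was under 1 FPKM in every library and fell below the filter. It was listed at 0.103, 0.0578 and 0.0348 FPKM for CD49f-neg, 0.269, 0.447 and 0.397 for CD49f-low and 0.909, 0.989 and 0.497 for CD49f-high, without overlap between gates. The lowest of these corresponds to about 4.50 fragments and the highest to about 129. The gene span of Lamb3 covers Hsd11b1 (up to 0.704 FPKM) and G0s2 (up to 37.2 FPKM) on the other strand, and the row joins 3 noncoding models, so at this level it is uncertain how much of the value is Lamb3. As shares of the β total, Lamb1 held 64.7 ± 3.17%, 67.5 ± 3.41% and 57.4 ± 2.85% in the 3 gates and Lamb2 35.2 ± 3.19%, 32.2 ± 3.32% and 42.0 ± 2.71%.

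The γ chains gave each gate a different profile. Lamc1, the partner in most known trimers, was above Lamc3 in all libraries and rose in CD49f-high, while Lamc3 rose in CD49f-low and fell again in CD49f-high.

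Lamc1 (row MERGE.2165, chromosome 1, 153218922 to 153332786, minus strand) stood at 67.3, 67.4 and 59.6 FPKM for CD49f-neg, 70.1, 76.3 and 75.6 for CD49f-low and 149, 155 and 173 for CD49f-high. The gates did not overlap, though CD49f-neg and CD49f-low lay close together. Lamc1 rose by 1.09 log2 units from CD49f-low to CD49f-high (SE 0.11, limma adjusted p = 0.000189) and by 1.28 from CD49f-neg to CD49f-high (SE 0.11, adjusted p = 3.94e-05). The difference of 0.19 between CD49f-low and CD49f-neg (SE 0.11, adjusted p = 0.250) turned to -0.092 after median-of-ratios scaling.

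Lamc3 (row MERGE.24615, chromosome 2, 31887291 to 31946539, plus strand) stood at 5.74, 12.2 and 10.52 FPKM for CD49f-neg, 52.7, 47.3 and 53.0 for CD49f-low and 8.32, 13.1 and 6.01 for CD49f-high. Every CD49f-low library lay above all others, and the CD49f-neg and CD49f-high libraries overlapped. Lamc3 rose by 2.36 log2 units from CD49f-neg to CD49f-low (SE 0.29, limma adjusted p = 0.000610) and fell by 2.42 from CD49f-low to CD49f-high (SE 0.29, adjusted p = 0.000447). The CD49f-high to CD49f-neg difference was -0.053 (SE 0.29, adjusted p = 0.926). Of the summed FPKM of Lamc1 and Lamc3, Lamc3 held 12.7 ± 4.23% for CD49f-neg, 40.8 ± 2.36% for CD49f-low and 5.49 ± 2.22% for CD49f-high, and Lamc1 held the rest. Lamc3 is the γ gene with the TGT codon shown above, and it came nearest to Lamc1 in CD49f-low. The melanocyte and dermal papilla marker sums were also highest in CD49f-low, at 439 to 534 and 179.9 to 202 FPKM. The skeletal muscle markers other than Des had their highest means there too. The part of these cell types in the Lamc3 level was not tested.

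**Figure D2:**
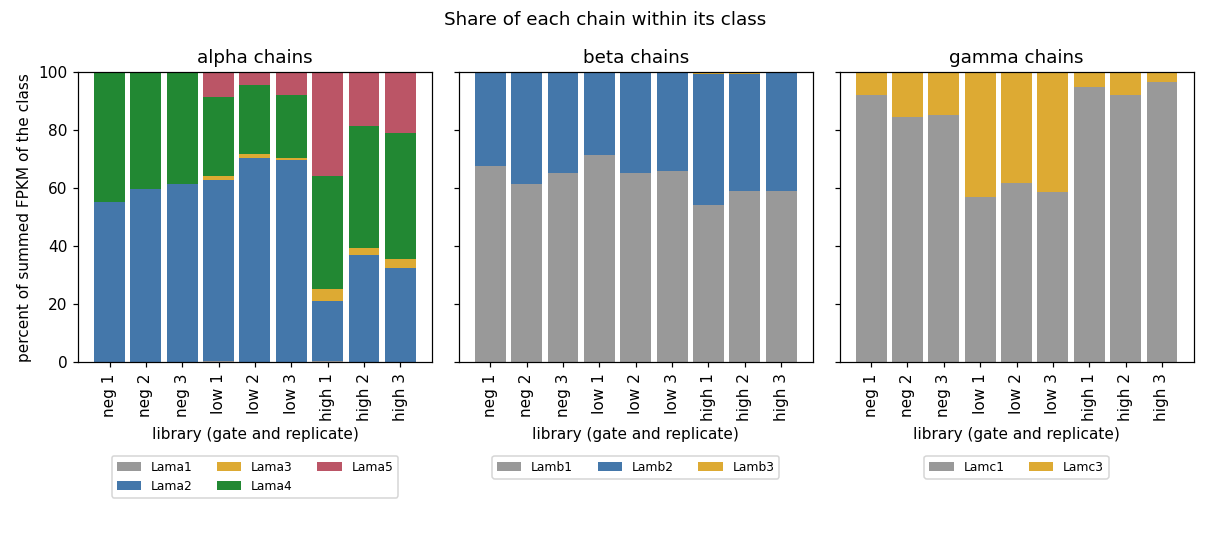
Percent of the summed FPKM of the α genes, the β genes, or Lamc1 and Lamc3 that each gene held, with one stacked bar per library (horizontal axis, gate and replicate). Lamc3 takes 38.3% to 42.9% of the γ sum in CD49f-low and at most 15.4% in any other library.

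Counted over the 8 chains that reached the filter, 4 rose and none fell from CD49f-neg to CD49f-low (Lama2, Lama3, Lama5 and Lamc3). Over all 20523 rows tested, 15.4% were called in that comparison (12.8% higher, 2.62% lower), and the median log2 difference was 0.44 for the 8 chains and 0.21 for all rows. Leaving out any 1 of the 5 libraries named for Lama2 gave 3 calls, and quantile normalization gave 2. From CD49f-neg to CD49f-high 5 of the 8 rose and none fell (Lama3, Lama4, Lama5, Lamb2 and Lamc1), where 22.1% of all rows were called (13.9% higher, 8.27% lower), with a median of 0.94 for the chains and 0.07 for all rows. From CD49f-low to CD49f-high 5 rose and 1 fell, Lamc3, where 16.4% of all rows were called (5.93% higher, 10.5% lower), with medians of 0.95 and -0.15. Passing the filter required a level that Lama3 reached only in CD49f-high, so these counts and medians describe the 8 chains and support nothing further. Libraries did not overlap for 5 chains higher and none lower in CD49f-low against CD49f-neg (34.8% and 5.77% of all rows), 5 and none in CD49f-high against CD49f-neg (22.5% and 13.9%), and 5 and 2 in CD49f-high against CD49f-low (10.3% and 27.0%). Median-of-ratios scaling brought the median of all rows near 0 and moved the split of their calls, from 2623 higher and 537 lower to 1117 and 1093 in the first comparison, from 2844 and 1697 to 2480 and 2232 in the second, and from 1216 and 2151 to 1614 and 1331 in the third. Quantile normalization gave 1040 and 1004, 2186 and 2315, and 1577 and 1431. With median-of-ratios scaling 3 chains rose and 1 fell in the first comparison, and the counts of chains in the other comparisons were as given. The 3 comparisons share libraries in pairs. In the F test over the 3 gates 7 of the 8 chains were called, all but Lamb1 (limma adjusted p = 0.364), against 28.5% of all rows. The F call of Lama2 (limma adjusted p = 0.0419) had the highest adjusted p of the 7, and it was lost after either scaling, with no filter (adjusted p = 0.116) and without any 1 of the 6 CD49f-neg and CD49f-low libraries.

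**Figure D3:**
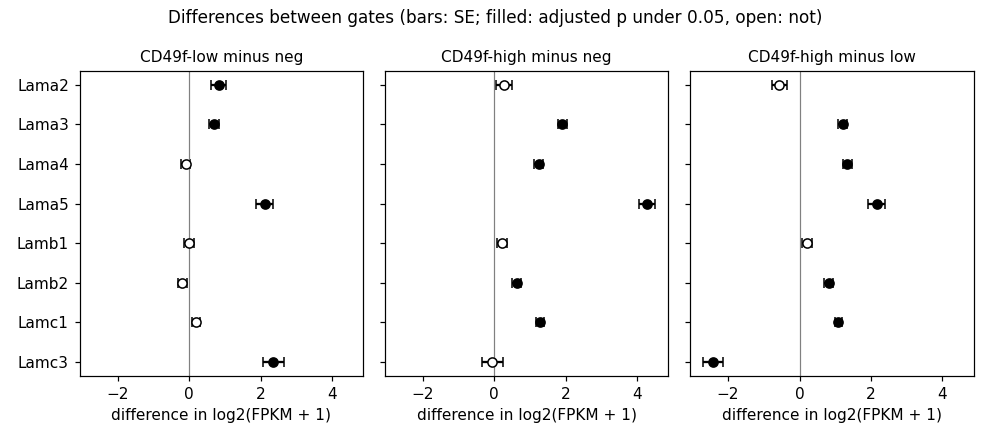
Differences in log2(FPKM + 1) between gates (horizontal axis) for the 8 chains tested, with SE bars, filled points for an adjusted p under 0.05 and open points otherwise. Lama5 lies at 2.12, 4.28 and 2.16 in the 3 comparisons, and Lamc3 at 2.36, -0.053 and -2.42.

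The next comparison was between the classes, since a trimer needs 1 chain of each. The summed α chains were the scarcest class in all 9 libraries, at 37.4 ± 3.24 FPKM for CD49f-neg, 59.1 ± 3.51 for CD49f-low and 90.6 ± 7.62 for CD49f-high. The β chains summed to 104 ± 8.47, 99.96 ± 2.83 and 137 ± 16.5 FPKM, and Lamc1 and Lamc3 together, called the γ total here, to 74.2 ± 4.86, 124.98 ± 3.14 and 168 ± 10.8. The γ total was below the β total in all 3 CD49f-neg libraries and above it in all 6 others. The α total was 50.4 ± 2.43%, 47.3 ± 1.997% and 53.98 ± 1.58% of the γ total in the 3 gates, and 35.9 ± 3.24%, 59.2 ± 4.55% and 66.4 ± 4.66% of the β total. Over the single libraries the α total ran from 44.98% to 55.6% of the γ total. Since FPKM is divided by transcript length, these levels can be set side by side between genes, within the limits of how the authors' gene models measured that length.

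For 13 trimers that are known for laminins and hold Lamc1 or Lamc3, the level of the scarcest of the 3 chains was taken in each library. This value describes transcripts in a gate and not assembled protein, trimers that share a scarce chain share its value, and chains of different cells in a gate need not meet. With the mean of the gate at 1 FPKM or more, CD49f-neg had all chains of 6 of the 13 trimers, CD49f-low of 9 and CD49f-high of 11. The trimers gained in CD49f-low were laminin-511, laminin-521 and laminin-523, all with Lama5 as the scarcest chain, and those gained in CD49f-high were laminin-311 and laminin-321, with Lama3. At a threshold of 5 FPKM the counts were 6, 6 and 9, so CD49f-low gained none.

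Laminin-211, the main laminin of muscle and peripheral nerve, was set by Lama2 in all 3 gates, at 22.0 ± 2.68, 39.8 ± 4.72 and 27.4 ± 8.39 FPKM. For laminin-221 the scarcest chain in CD49f-low was Lamb2, at 32.1 ± 3.49 FPKM. Laminin-411 and laminin-421, laminins of vessel walls, were set by Lama4 in every gate, at 15.2 ± 1.25, 14.2 ± 0.842 and 37.6 ± 5.24 FPKM. Laminin-511 and laminin-521 were set by Lama5, at 0.179 ± 0.0346, 4.22 ± 1.23 and 22.5 ± 7.17 FPKM. The α chain was thus the scarcest of these 6 trimers in each gate, except for laminin-221 in CD49f-low.

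The γ3 trimers changed their scarce chain between gates. Laminin-213 stood at 9.50 ± 3.36 FPKM in CD49f-neg and 9.14 ± 3.61 in CD49f-high, both set by Lamc3, and at 39.8 ± 4.72 in CD49f-low, where Lama2 was scarcer than Lamc3. Laminin-423 stood at 9.50 ± 3.36, 14.2 ± 0.842 and 9.14 ± 3.61, with Lama4 the scarcest in CD49f-low and Lamc3 in the other gates. Laminin-523 was set by Lama5 in CD49f-neg and CD49f-low and by Lamc3 in CD49f-high, at 0.179 ± 0.0346, 4.22 ± 1.23 and 9.14 ± 3.61.

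Laminin-111 and laminin-121 were set by Lama1 and reached 0.190 ± 0.0774 FPKM at most, in CD49f-low.

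**Figure D4:**
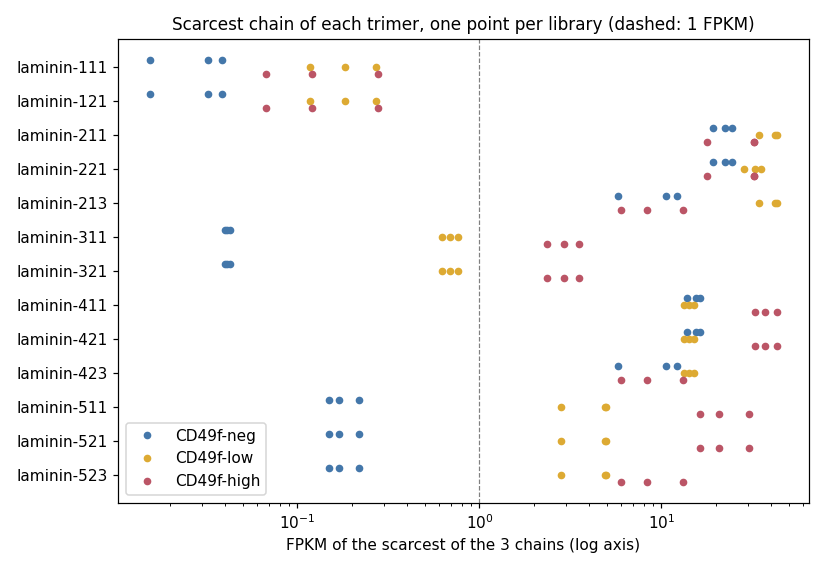
FPKM of the scarcest of the 3 chains (log axis) for 13 trimers, with one point per library coloured by gate and a dashed line at 1 FPKM. Laminin-411 and laminin-421 lie at 32.8 to 43.2 FPKM in CD49f-high, to the right of the other gates, and laminin-213 lies at 34.4 to 43.0 in CD49f-low.

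The chains did not form 1 group across the libraries. Over the 8 chains and 9 libraries, log2(FPKM + 1) had its highest Pearson correlations between Lama5 and Lama3 (r = 0.98), Lamc1 and Lama4 (r = 0.97) and Lamc1 and Lama3 (r = 0.95). These values describe 3 gates with shared libraries and carry no test, and Lama3 passed the filter through CD49f-high alone. The rows named next were picked as the most alike of 3744 candidates, so their high correlations come from that choice and carry no test either. By the same measure over 9 libraries, the rows most like each chain were, for Lama5, Usp6nl (r = 0.997) and Myh11 (r = 0.995), the smooth muscle myosin heavy chain, and, for Lama3, Cobll1 (r = 0.995) and Pdgfa (r = 0.995), a growth factor. For Lama4 they were Rap2a (r = 0.982) and Ajuba (r = 0.976), and for Lamc1 Naalad2 (r = 0.996) and Reln (r = 0.993), which encodes the secreted protein reelin. Reln stood at 0.0458 ± 0.0361, 0.372 ± 0.179 and 9.09 ± 1.68 FPKM in the 3 gates, so it passed the filter through CD49f-high. Lamc3 was most like Sox18 (r = 0.982), a transcription factor gene that the dermal papilla list holds, with 21.1 ± 6.80, 79.9 ± 13.8 and 19.2 ± 5.60 FPKM in the 3 gates, followed by Stmn2 (r = 0.981) and Cxcr4 (r = 0.979), a chemokine receptor. Lama2 was most like Mcm6 (r = 0.972), Lamb2 most like Serping1 (r = 0.989) and Lamb1 most like Pxn (r = 0.905).

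Genes that receive or anchor laminins were read from a list of 15, of which 13 reached the filter. From CD49f-neg to CD49f-high 8 of the 13 rose and none fell, from CD49f-neg to CD49f-low 5 rose and none fell, and from CD49f-low to CD49f-high 5 rose and none fell. The shares of all rows called higher were 13.9%, 12.8% and 5.93% in that order, and 8.27%, 2.62% and 10.5% were called lower. Itga6, the gene of the sorted antigen, is on the list and among those that rose in each comparison, so its part of each count was set by the sort. Itgb4, also counted as higher in both comparisons with CD49f-high, reached 1 FPKM in the CD49f-high libraries alone. The list's median log2 difference was 0.90, 0.33 and 0.44 in that order, beside 0.07, 0.21 and -0.15 for all rows. Itga6 and Itgb4 also enter these list medians, so the medians were partly set by the sort and the filter. Mcam, a laminin-411 receptor of mural and endothelial cells, stood at 3.65 ± 0.519, 14.5 ± 1.93 and 71.8 ± 9.21 FPKM. Itga7, the α subunit of a laminin receptor of muscle, stood at 0.464 ± 0.154, 3.74 ± 1.01 and 39.8 ± 10.1, and Bcam, a receptor for the α5 chain, at 2.07 ± 0.261, 4.44 ± 1.01 and 25.1 ± 7.97. In limma's test Bcam rose from CD49f-low to CD49f-high by 2.24 log2 units (adjusted p = 0.000135), beside the rise of its ligand chain Lama5 by 2.16. The mural cell sum was also highest in CD49f-high, where each of the 9 markers had its highest mean, while Pdgfrb, Kcnj8 and Abcc9 had lower means in CD49f-low than in CD49f-neg. Their part was not tested.

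Of 19 basement membrane partners, 17 reached the filter. From CD49f-neg to CD49f-low 9 rose and 2 fell, from CD49f-neg to CD49f-high 8 rose and 6 fell, and from CD49f-low to CD49f-high 6 rose and 5 fell. The shares of all rows called were 12.8% higher and 2.62% lower, 13.9% and 8.27%, and 5.93% and 10.5% in that order. The list had medians of 0.99, -0.03 and -0.04 beside 0.21, 0.07 and -0.15 for all rows. Agrn, which encodes agrin, a proteoglycan that binds the laminin coiled coil and dystroglycan, stood at 4.25 ± 0.322, 26.4 ± 3.93 and 35.9 ± 2.97 FPKM. Tinagl1, a matricellular protein that binds integrins, stood at 0.151 ± 0.0638, 2.41 ± 0.498 and 25.8 ± 9.41. Col4a1, a chain of the collagen IV network, and Col18a1, a basement membrane collagen, had the same adjusted p in the F test. Col4a1 stood at 97.7 ± 2.75, 219 ± 31.1 and 701 ± 102 FPKM. Col18a1 stood at 5.36 ± 0.821, 13.6 ± 3.44 and 149 ± 46.2, and Col7a1, the anchoring fibril collagen that attaches laminin-332 to the dermis, at 158 ± 26.2, 103 ± 18.5 and 14.0 ± 2.72. Col7a1 thus fell from CD49f-low to CD49f-high by 2.79 log2 units (limma adjusted p = 3.21e-05), while Lama3 rose by 1.21 in the same comparison. Lama3 passed the filter through CD49f-high alone.

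Of 8 other laminin and laminin-related genes, 6 had a single row and 4 reached the filter, of which 2 rose and 1 fell in CD49f-low against CD49f-neg, 2 and 1 in CD49f-high against CD49f-neg and 1 and 1 in CD49f-high against CD49f-low. Of all rows, 15.4%, 22.1% and 16.4% were called in these comparisons. The median log2 differences were 0.35, 0.35 and 0.00041 beside 0.21, 0.07 and -0.15 for all rows. Ntn1, the guidance protein netrin-1, which shares the amino-terminal domains of the laminin γ chains, stood at 95.3 ± 18.3, 50.6 ± 5.14 and 21.96 ± 7.16 FPKM and fell at each step (limma adjusted p = 0.0275 and 0.00518). Ntng1, a membrane-anchored netrin, rose at each step, from 0.352 ± 0.0583 to 1.32 ± 0.447 and 3.31 ± 0.216 FPKM (adjusted p = 0.0103 and 0.00320). Ntn4, a netrin that binds the laminin γ1 chain, stood at 1.21 ± 0.288, 2.42 ± 0.358 and 2.48 ± 0.513 FPKM and was higher in CD49f-low than in CD49f-neg (limma adjusted p = 0.0256).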

How the data were processed

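The authors deposited FPKM values for 84809 rows in a single table of 9 columns. The submitters' processing notes name GRCm38 with the tools FastQC, TopHat2 and StringTie, and give no version. The NEBNext Ultra kit served for library construction, per the labels' protocols, and strand use is not stated. Deposited FPKM were analysed on the log2(FPKM + 1) scale, where a fold change of a low gene is understated, in the 20523 rows with 3 or more libraries at 1 FPKM or above. All 9 libraries were fitted with limma 3.58.1 in R 4.3.3 (gate means, empirical Bayes with trend, 6 residual degrees of freedom), with Benjamini-Hochberg adjustment over all rows and calls at an adjusted p under 0.05. The spacing of low FPKM values in GENCODE M21 genes with 1 exon gave the depth estimate. The chains, lists and alternatives were chosen with earlier results of these data known. Besides the chains, the text names Itga6, Lama1, up to 4 called members per list by the adjusted p of the F test (5 of the partners, since 2 had the same adjusted p), up to 3 rows per chain by correlation (one symbol, at least 5 FPKM in the highest gate). Lama1 also belongs to the list of related genes, and 1 planned gene, with the results that need it, is not reported here. Same-numbered libraries of different gates correlated at 0.252 to 0.520 in their deviations from gate means, and differently numbered ones at -0.453 to 0.118, so the numbers pair the libraries in the data while the labels give no source for the pairing. It entered only as an alternative. In simulated data with 200 changed rows of 20523, the fit recovered 78%, 68% and 76% of 2-fold and 97%, 95% and 90% of 4-fold changes for low against neg, high against neg and high against low, and 7.89%, 6.32% and 3.49% of its calls were false. The changed rows had a mean log2(FPKM + 1) above 2, and the changes were added on that scale. Simulated errors were independent, without the pairing by number. The rates therefore do not cover rows as low as Lama3, or paired libraries. Python 3.11.15 with pandas 2.3.3, numpy 2.4.6 and matplotlib 3.10.9 handled tables and figures.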

Additional observations from a re-analysis of the deposited data

How the results depend on the processing

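Each alternative changed 1 choice. Of 405 values of single chains under alternatives, 385 kept their direction and their side of the threshold, 9 lost a call, 3 gained one and 8 changed sign without being called. The sign changes were Lamc1 in low against neg after median-of-ratios scaling (-0.092), Lamb1 in low against neg with a library left out (-0.060 to 0.054, above 0 in 4 cases) and Lamc3 in high against neg with a library left out (-0.34 to 0.18, above 0 in 3 cases). The number of chains called in low against neg was 2 after quantile normalization, against 4. Rows called over the whole table moved by over 1.5 times in the following cases. With the stricter filter (3 or more libraries at 5 FPKM or above), which tests 7340 rows and not Lama3, they were 1358 for low against neg (3160 in the fit reported), 1911 for high against neg (4541), 1323 for high against low (3367) and 2340 for the F test (5856). With the replicate block they were 5806 for low against neg, 5309 for high against low and 8995 for the F test, and the block changed 1 call of a chain, that of Lama2 in high against low. Quantile normalization gave 2044 for low against neg. Leaving out 1 library gave 1614 to 3764 for low against neg, with 1614 without CD49f-neg replicate 3 and 1681 and 1726 when CD49f-low replicate 3 or 2 was left out, and 2201 to 3585 for high against low, with 2201 when CD49f-low replicate 3 was left out. The F test called 6 chains instead of 7 after both scalings and without any 1 of the 6 CD49f-neg and CD49f-low libraries. With no filter Lamb3 was called in high against neg (0.74, adjusted p = 0.00761). Trimer counts at 1 FPKM stayed at 6, 9 and 11 under the median, scaling and each library left out, and were 6, 6 and 9 at 5 FPKM. The cause of these changes was not tested. The stricter filter tests 7340 rows in place of 20523, so its numbers of rows called have a different base.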
